A study of Mus musculus with 6 samples.

Results

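Transcripts of 37 genes that carry out or restrain programmed cell death were followed in mouse kidney tubular cells after knockdown of Glis2. The genes were taken from a fixed list of symbols of caspases, Bcl2 family proteins, inhibitors of apoptosis proteins (IAPs) and their partners, and each was represented by its brightest probe over the 6 arrays. Of the 37 genes, 34 had a probe annotated to that symbol alone, among 19057 genes in the table. Bcl2a1a, Endog and Ripk1 had none and were not analysed here. The Glis2KD group comprised 3 samples of immortalized proximal tubular cells of C56BL/6 background that stably expressed a short hairpin RNA against Glis2, which encodes a Krüppel-like zinc finger transcription factor related to the Gli proteins. The Control group comprised 3 samples of the same cells with a hairpin against GFP, a protein that the cells do not make. All were collected 7 days after lentiviral infection, and both groups therefore share immortalization, lentiviral integration and an expressed hairpin. The labels give neither the number of hairpin sequences nor whether the 3 samples of a group were separate infections, so each p-value is relative to a spread that may be technical only.

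Apoptosis is carried out by caspases, proteases that are made as inactive precursors. In the mitochondrial route, proteins of the Bcl2 family decide whether the outer membrane of the mitochondrion is opened and cytochrome c is released, which activates the initiator Casp9 on the Apaf1 scaffold. In the death receptor route, ligand-bound receptors recruit Fadd and the initiator Casp8, and Cflar, a relative of Casp8 without protease activity, competes for that position. Where Casp8 is inactive, the kinases Ripk1 and Ripk3 can activate Mlkl and cause necroptosis. Death of tubular epithelial cells by such routes is well known from acute kidney injury.

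RNA was hybridised to an Illumina mouse bead array, and the deposited value is a linear intensity with background included. A probe was taken to be above background where its mean intensity exceeded 139, which is the most frequent intensity of the arrays plus 3 SD of the values below it. All fold changes are differences of log2 intensity, Glis2KD minus Control, so a positive value means higher in Glis2KD. A gene was called where limma's p-value, adjusted by Benjamini-Hochberg over all 19057 genes, was under 0.05. Because background is included, changes of dim genes are understated, and intensities of different probes are not compared with each other.

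Glis2 had an intensity of 169, 161 and 176 on the Glis2KD arrays, against 278, 234 and 229.7 on the Control arrays, with a log2 fold change of -0.55 ± 0.092 (SE) and limma's adjusted p = 6.36e-05. The design text states a knockdown of more than 80%, by a measurement not analysed here. Arrays correlated at r = 0.995 within groups and at 0.980 to 0.982 between them, over 45281 probes that are not independent replicates. Of 14 proximal tubule markers measured, 3 were above background (Aqp1, Mme and Pax8), and the defining transporters Lrp2, Slc34a1 and Slc5a2 were at background on all 6 arrays. The summed intensity of that list was 2446 to 2741 in Glis2KD and 12071 to 13752 in Control. In Control most of it came from the water channel gene Aqp1, with a mean of 9760.0 there and 365 in Glis2KD. Mme had a mean of 855 in Control and 118 in Glis2KD, where all its arrays were under the limit. Aqp1 and Mme were called lower, and Pax8 was not called. The leukocyte list had 2 of 9 genes above background and a summed intensity of 1529.8 to 1675 in Glis2KD and 1646 to 1804 in Control. These were Csf1r, called higher at 0.44, and Cd14, called lower at -0.38, while Ptprc and Adgre1 were at background. The fibroblast list had 2 of 10, Acta2 and Dcn, with Pdgfra and Col1a1 at background by their means, and sums of 2239.6 to 2533 in Glis2KD and 1321 to 1359.6 in Control. Acta2 was called higher at 3.17 and makes up the difference, and Dcn was called lower at -0.98. Col1a2 was also called higher, at 0.26, but its mean was under the limit. The endothelial list had 1 of 8 with 1023 to 1038 in Glis2KD and 947 to 1047 in Control, and the distal tubule and collecting duct list 3 of 9 with 2138 to 2289.6 in Glis2KD and 2301 to 2429 in Control. The general epithelial list had 8 of 9 with 80334 to 82684 in Glis2KD and 61019 to 63454 in Control, most of it from the keratins Krt8 and Krt18, both called higher, while the junction genes Cdh1 at -0.38, Cdh16 at -1.41 and Cldn1 at -1.16 were called lower. Their part in the results below was not tested. In such bulk samples, fewer cells with a transcript and less of it per cell cannot be told apart.

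Of the 34 apoptosis genes measured, 13 were called, and they ran in both directions, also within the initiator caspases and the BH3-only proteins. Cflar, Casp8, Bad, Htra2 and Casp6 rose, and Aifm1, Casp9, Casp1, Bmf, Bid, Bcl2l11, Bcl2 and Mlkl fell. The 5 higher and 8 lower genes compare with 11.1% of all genes called higher and 11.4% called lower, or 22.5% in either direction. All 13 were among the 27 genes of the list above background, and of all 9507 genes above background 43.7% were called, 21.5% higher and 22.2% lower. The called share of the list above background, 48.1%, was close to that figure, and the list as a whole had a median log2 fold change of -0.0019 beside 0.0039 for all genes. In 17 of the 34 genes all Glis2KD arrays lay on one side of all Control arrays, against 32.2% of all genes. Among the 9507 genes above background this held for 5013. That set is unlike the 34 members, which include 7 under the limit, with Casp12 of the 17 among them. The members called had absolute log2 fold changes of 0.35 and above, and the 21 not called had 0.22 and below.

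**Figure D1:**
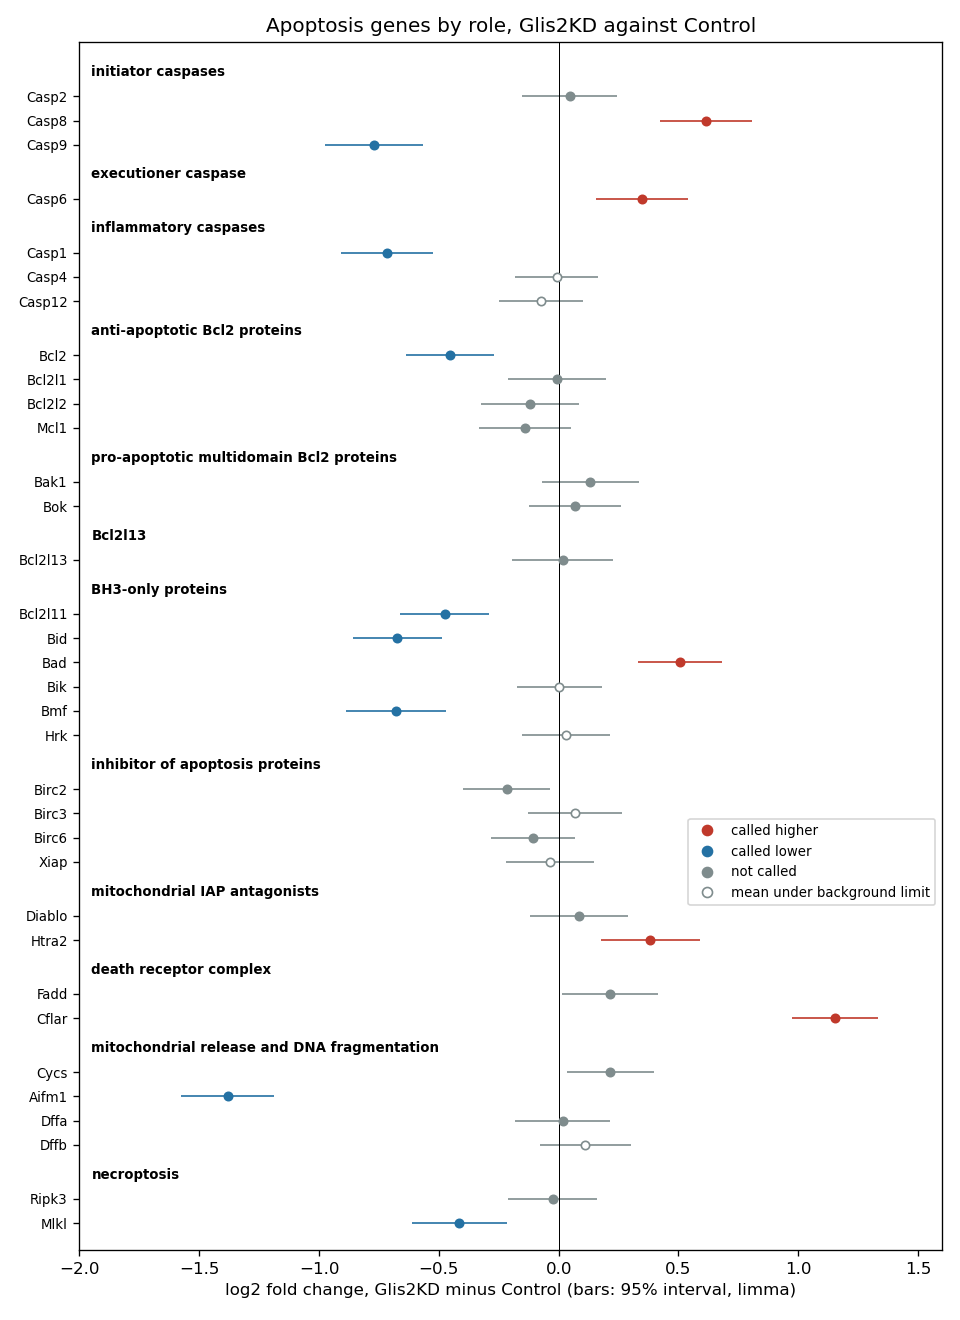
Log2 fold change of the 34 measured apoptosis genes, Glis2KD minus Control, grouped by role (points, with 95% intervals of limma's fit over 6 arrays; open points have a mean intensity under the background limit). Called genes lie on both sides of 0, from Cflar at 1.15 to Aifm1 at -1.38.

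The promoter windows of the 2 genes that rose most and of the 2 that fell most among those above background on every array, Cflar and Casp8, and Aifm1 and Casp9, are shown because these 4 genes carry the widest changes in each direction and because Cflar and Casp8 are neighbours on the chromosome. Each window is RefSeq sequence of build GRCm38.p6 of 300 bases around an annotated transcription start, most of them upstream, written 5′ to 3′ on the strand of the gene. Capitals mark matches, on either strand, to the GC box (GGGCGG), the TATA box (TATAAA), the CCAAT box (CCAAT), the Gli site (GACCACCCA) or the 10-base NF-kappaB consensus.
Cflar, chr1:58711241-58711540, plus strand: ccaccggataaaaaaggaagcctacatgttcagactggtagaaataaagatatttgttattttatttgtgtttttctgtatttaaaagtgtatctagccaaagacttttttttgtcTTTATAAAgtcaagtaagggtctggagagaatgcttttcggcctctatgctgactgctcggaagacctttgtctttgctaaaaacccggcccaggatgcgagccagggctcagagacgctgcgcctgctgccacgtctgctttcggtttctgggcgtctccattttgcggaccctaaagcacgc
Casp8, chr1:58802252-58802551, plus strand: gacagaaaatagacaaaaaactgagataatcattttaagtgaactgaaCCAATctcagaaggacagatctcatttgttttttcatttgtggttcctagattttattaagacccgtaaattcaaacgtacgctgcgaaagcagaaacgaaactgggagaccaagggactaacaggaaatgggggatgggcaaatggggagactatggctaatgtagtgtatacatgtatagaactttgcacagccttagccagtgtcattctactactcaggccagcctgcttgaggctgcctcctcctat
Aifm1, chrX:48513514-48513813, minus strand: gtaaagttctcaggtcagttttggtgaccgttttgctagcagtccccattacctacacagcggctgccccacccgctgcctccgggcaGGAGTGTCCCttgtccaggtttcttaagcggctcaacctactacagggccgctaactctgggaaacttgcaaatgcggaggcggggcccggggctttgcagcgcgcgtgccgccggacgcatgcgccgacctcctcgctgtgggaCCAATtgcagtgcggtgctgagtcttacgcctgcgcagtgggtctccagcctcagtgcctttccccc
Casp9, chr4:141793362-141793661, plus strand: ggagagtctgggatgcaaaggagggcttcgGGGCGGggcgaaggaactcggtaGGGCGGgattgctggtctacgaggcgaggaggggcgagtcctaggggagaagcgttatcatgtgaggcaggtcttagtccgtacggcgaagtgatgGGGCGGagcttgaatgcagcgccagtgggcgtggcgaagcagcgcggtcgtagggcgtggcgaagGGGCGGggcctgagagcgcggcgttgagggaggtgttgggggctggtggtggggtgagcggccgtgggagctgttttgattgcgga
The Casp9 window is rich in G and C and holds 4 GC boxes, a motif present in 35.7% of the 32851 windows of this kind in the mouse genome. Cflar has 2 overlapping TATA box matches on opposite strands, a motif found in 13.6% of windows. Casp8 and Aifm1 each have a CCAAT box (37.4% of windows), and Aifm1 also matches the NF-kappaB consensus on the reverse strand (4.51%). The Gli site, the consensus of the related Gli proteins, was in none of the windows of the 32 measured members that have one, and in 0.253% of all windows. In the windows of these 32 members a GC box occurred in 22, a CCAAT box in 11, an NF-kappaB match in 4 and a TATA box in 2. A member was counted if any of its windows held the motif, whereas the percentages are shares of single windows. The counts and the percentages are therefore not compared. A match describes letters and not a bound site.

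Cflar, the decoy relative of Casp8 that keeps the death receptor complex from starting apoptosis, showed the widest rise of the list. Its intensity was 1053, 1073 and 1034 on the 3 Glis2KD arrays, against 442, 482 and 499 on the Control arrays. Every Glis2KD array was more than 2 times as bright as every Control array, and the log2 fold change was 1.15 ± 0.086 (SE), limma's adjusted p = 3.00e-10. Casp8, the initiator protease recruited in the same complex, also rose, with 2508, 2249 and 2175 in Glis2KD and 1384, 1642 and 1500.1 in Control, a log2 fold change of 0.62 ± 0.092 (SE) and an adjusted p = 1.42e-05. The lowest Glis2KD array of Casp8 stood above the highest Control array. Fadd, the adaptor that joins both to the receptor, had 862, 915 and 1077 in Glis2KD and 746, 875 and 835 in Control, and the groups overlapped. Its log2 fold change of 0.21 ± 0.097 (SE) was not called (adjusted p = 0.139), with a 95% interval from 0.012 to 0.41.

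The other initiator caspases did not follow Casp8. Casp9, the initiator of the mitochondrial route, fell to 825, 850.1 and 742 in Glis2KD, against 1535, 1417 and 1189.5 in Control. All Glis2KD arrays lay well below all Control arrays, and the log2 fold change was -0.77 ± 0.098 (SE) with limma's adjusted p = 1.53e-06. Casp2, an initiator linked to DNA damage and chromosome mis-segregation, had 2764, 2863 and 2493 in Glis2KD and 2677, 2889 and 2322 in Control, overlapping groups and a log2 fold change of 0.045 ± 0.095 (SE) that was not called (95% interval -0.15 to 0.24). Casp6, which cleaves nuclear lamins and is the only executioner caspase of the list, rose modestly. Its intensity was 1432, 1724 and 1736 in Glis2KD and 1227, 1319 and 1286 in Control, without overlap, and the log2 fold change was 0.35 ± 0.093 (SE), adjusted p = 0.00658. With the background intensity subtracted, Casp6 was not called (0.38, adjusted p = 0.0916).

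Among the inflammatory caspases, which process interleukin precursors and gasdermin D, Casp1 was the only member above background, and only in Control. It had 121, 123 and 104 on the Glis2KD arrays, all under the background limit, and 185, 181 and 204 on the Control arrays, all above it. Casp1 was therefore at least 1.37-fold lower in Glis2KD, with limma's adjusted p = 1.94e-06. Casp4, the sensor of cytosolic lipopolysaccharide, ranged from 125 to 131 over the 6 arrays and Casp12, associated with the endoplasmic reticulum, from 118 to 132. By the probes used, both were at background on every array. A further probe of Casp4 reached 144 and one of Casp12 reached 145, with means under the limit, and neither was called. The fitted log2 difference of Casp1 was -0.71. With background subtracted it was -2.24, but every Glis2KD array then lay under the lowest allowed intensity of 16 and was set to it. That value depends on this floor, and only the at-least fold bounds the fall.

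Of the proteins that hold the mitochondrial membrane closed, Bcl2 fell and the other 3 measured were not called. Bcl2, the founding member of the family, had 558, 617 and 654 in Glis2KD and 831, 843 and 825 in Control. Its Control arrays were nearly equal, all Glis2KD arrays lay below them, and the log2 fold change was -0.45 ± 0.088 (SE), limma's adjusted p = 0.000327. With all 9 probes of Bcl2 averaged it was not called (-0.060, adjusted p = 0.579). Mcl1, a short-lived guardian that is lost quickly when translation stops, had 3258, 3519 and 3535 in Glis2KD and 4237, 3693 and 3470.2 in Control, and 1 Control array lay within the range of the Glis2KD arrays. Its log2 fold change of -0.14 ± 0.092 (SE) had a 95% interval from -0.33 to 0.050. Bcl2l1, which encodes Bcl-xL, had 1419, 1484 and 1307 in Glis2KD and 1218, 1438 and 1594 in Control, with a log2 fold change of -0.0069 ± 0.099 (SE) and an interval from -0.21 to 0.20. Bcl2l2, which encodes Bcl-w, had -0.12 ± 0.099 (SE) with an interval from -0.32 to 0.086. None of these 3 intervals reaches a log2 difference of 0.35, the smallest among the called genes, but smaller differences lie within them. The 5 probes of Bcl2a1b, Bcl2a1c and Bcl2a1d, near-identical copies of Bcl2a1a that probes may not tell apart, read between 101 and 169 over the 6 arrays, and none was called.

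The proteins that open the membrane were not called by the probes used. Bak1, an effector resident on mitochondria, had 205, 211 and 212 in Glis2KD and 162, 200.3 and 213 in Control, a log2 fold change of 0.13 ± 0.097 (SE). Bok, an effector found largely on the endoplasmic reticulum, had 3353, 3418 and 3325 in Glis2KD and 3635, 3102 and 2933 in Control, a log2 fold change of 0.068 ± 0.092 (SE). In each, at least 1 Control array lay above part of the Glis2KD arrays. Bcl2l13, a mitochondrial family member with a role in mitophagy, had a log2 fold change of 0.017 ± 0.10 (SE) with an interval from -0.19 to 0.23.

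BH3-only proteins, the sensors that set off the effectors, formed the largest class, with 3 called lower and 1 higher of 6. These 4 were the ones above background, where 43.7% of all genes were called, and the class is small. Bid, which Casp8 cleaves to carry the death receptor signal to mitochondria, fell to 1780.2, 1694 and 1698 in Glis2KD, against 2500.3, 2999 and 2771 in Control. The log2 fold change was -0.67 ± 0.090 (SE) with limma's adjusted p = 2.91e-06, opposite in direction to Casp8. Bmf, held on the actin and myosin cytoskeleton and released when cells detach, had 194, 193 and 226 in Glis2KD and 327, 372 and 285 in Control. It was a dim gene whose Glis2KD arrays stood little above the background limit, and its log2 fold change of -0.68 ± 0.10 (SE), adjusted p = 1.24e-05 became -1.24 once background was subtracted. Bcl2l11, which encodes Bim, had 762, 707 and 724 in Glis2KD and 1054, 924 and 1078 in Control, a log2 fold change of -0.48 ± 0.089 (SE) and an adjusted p = 0.000225.

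Bad, a BH3-only protein that survival kinases inactivate by phosphorylation, was the member of this class that rose. It had 2391, 2588 and 2556 in Glis2KD and 1723, 1772 and 1813 in Control, with a wide gap between the groups. The log2 fold change was 0.51 ± 0.085 (SE), with limma's adjusted p = 6.27e-05. Bik, which acts at the endoplasmic reticulum, ranged from 111 to 123 over the 6 arrays and Hrk, known mainly from neurons, from 108 to 128, and neither exceeded the background limit on any array.

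None of the 4 IAP genes was called, and 2 of them were at background. Birc2, which encodes the ubiquitin ligase cIAP1, had 710.0, 655 and 727 in Glis2KD and 854, 765 and 812 in Control. The groups did not overlap, but the log2 fold change of -0.22 ± 0.088 (SE) missed the threshold with adjusted p = 0.0859, and its interval ran from -0.40 to -0.035. Birc6, a very large ubiquitin ligase, read 131 to 153 over the 6 arrays, around the background limit. Birc3, which encodes cIAP2, and Xiap, the direct inhibitor of Casp9 and of executioner caspases, had means under the limit, with highest readings of 130.5 and 145.

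Htra2 and Diablo leave the mitochondrion and lift the block by IAPs. Htra2, a serine protease, had 1857, 1861 and 1723 in Glis2KD and 1176, 1459 and 1571 in Control. The groups did not overlap, the lowest Control array lying well below the other two, and the log2 fold change was 0.38 ± 0.10 (SE) with limma's adjusted p = 0.00571. Without Control replicate 1 it was not called (0.26, adjusted p = 0.0710), nor with background subtracted (0.41, adjusted p = 0.157). Diablo, also called Smac, had 1830.0, 1777 and 1709 in Glis2KD and 1708, 1432 and 1908 in Control, overlapping groups and a log2 fold change of 0.084 ± 0.098 (SE) (95% interval -0.12 to 0.29).

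Aifm1, a mitochondrial flavoprotein needed for the assembly of the respiratory chain and able to reach the nucleus in dying cells, showed the widest fall of the list. Its intensity was 351, 439 and 401 on the Glis2KD arrays, against 1073, 1025 and 994 on the Control arrays. Every Glis2KD array was below 50% of every Control array, and the log2 fold change was -1.38 ± 0.093 (SE) with limma's adjusted p = 4.82e-11. Cycs, cytochrome c itself, had 4123, 4042 and 4103 in Glis2KD and 3269, 3819.8 and 3506 in Control, without overlap, but the log2 fold change of 0.21 ± 0.088 (SE) was not called (adjusted p = 0.0895). Without Control replicate 2 Cycs was called (0.27, adjusted p = 0.0493). Dffb, the nuclease that cuts DNA between nucleosomes, was at background on all arrays, and Dffa, its chaperone and inhibitor, was dim, with 151 to 184 over the 6 arrays.

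Of the necroptosis genes, Mlkl, the protein that breaks the plasma membrane, fell. It had 1376, 1727 and 1399.8 in Glis2KD and 2012, 1904 and 2053 in Control, and the groups did not overlap. The log2 fold change was -0.41 ± 0.095 (SE) with limma's adjusted p = 0.00187, and with background subtracted it was not called (-0.44, adjusted p = 0.0850). Ripk3, the kinase that activates Mlkl, read 125 to 147 over the 6 arrays, around the background limit, and no change was detectable.

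**Figure D2:**
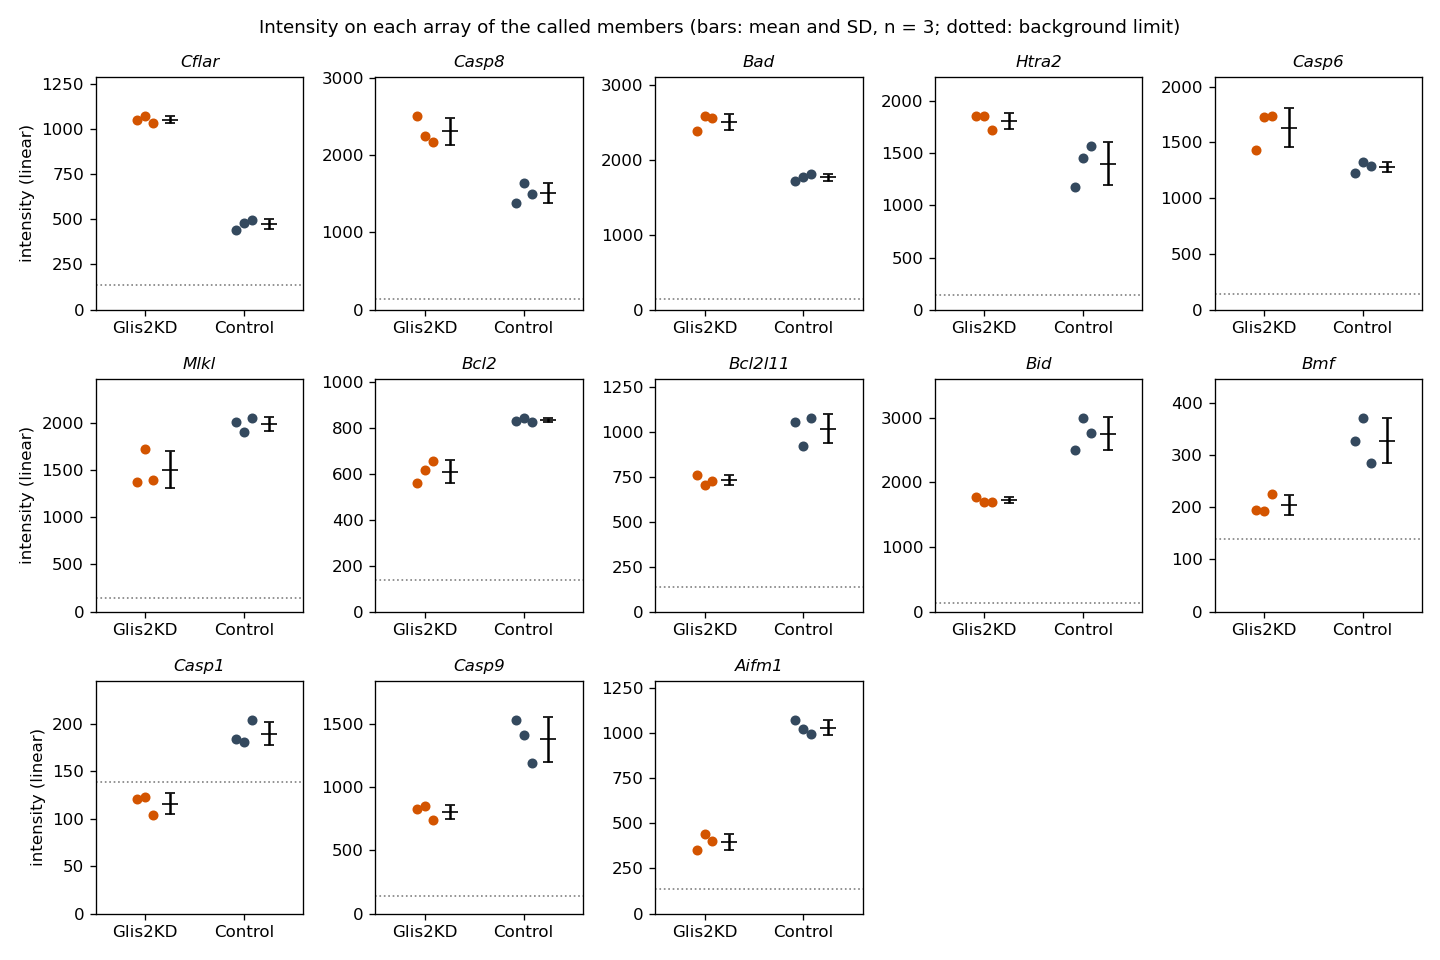
Linear intensity of the 13 called genes on each of the 3 Glis2KD arrays (left) and 3 Control arrays (right), with mean and SD beside them and the background limit dotted. The groups do not overlap in any of the 13, and Casp1 alone falls under the limit, on its Glis2KD arrays.

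Set side by side by function, 18 measured genes promote apoptosis, 15 of them above background. Of the 18, 4 were called higher and 5 lower, with a median log2 fold change of 0.076. The 9 measured inhibitors, 7 of them above background, had 1 higher, Cflar, and 1 lower, Bcl2, with a median of -0.11. For comparison, 43.7% of all genes above background were called in either direction, and 22.5% of all genes. Within the mitochondrial route Casp9, Bid, Bmf, Bcl2l11 and Aifm1 fell while Bad and Htra2 rose and Bcl2, an inhibitor of that route, fell. Within the death receptor route Casp8, which promotes apoptosis, and Cflar, which restrains it, rose together. The classes are small and the genes were listed with results of these data known, so the counts are a description.

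The 34 genes were covered by 88 probes, and 10 genes had a single probe, among them Casp1, Bad and Bmf. Over all 34885 probes with 1 symbol, 17.6% were called, and 12 of the 54 further probes of the list were. Further probes above background existed for 8 of the 13 called genes. Of those 14 probes, 11 had the direction of the gene, 8 were called in it and none in the opposite one. The second probe of Casp8 gave 0.46 and that of Casp6 0.32, and the further probes of Htra2 gave 0.41 and 0.44, all called higher. A second probe of Aifm1 had 383, 352 and 456 in Glis2KD and 923, 990.0 and 947 in Control, a log2 fold change of -1.27 next to -1.38 for the probe used. Bcl2l11 had further probes at -0.33 and -0.41, both called lower.

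The probes of other genes differed more among themselves. Bcl2 had 9 probes, of which the probe used gave -0.45, another -0.31, also called, and 1 more -0.15, not called. The other 3 above background ran the opposite way, at 0.22, 0.11 and 0.050, and were not called. Casp9 depended on the probe used, since another above background gave -0.11 and the remaining ones were at background. The second probe of Mlkl gave -0.22 and was not called. The further probes of Cflar and of Bid were at background, and those genes depended on 1 probe each. With all probes averaged, the log2 fold change was 0.46 for Cflar, -0.27 for Casp9, -0.29 for Bid and -0.90 for Aifm1, and these remained called. In 4 genes that were not called, a further probe was. One probe of Fadd gave 0.37, one of Bok 0.29, one of Birc2 -0.38 and one of Bcl2l2 -0.24.

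**Figure D3:**
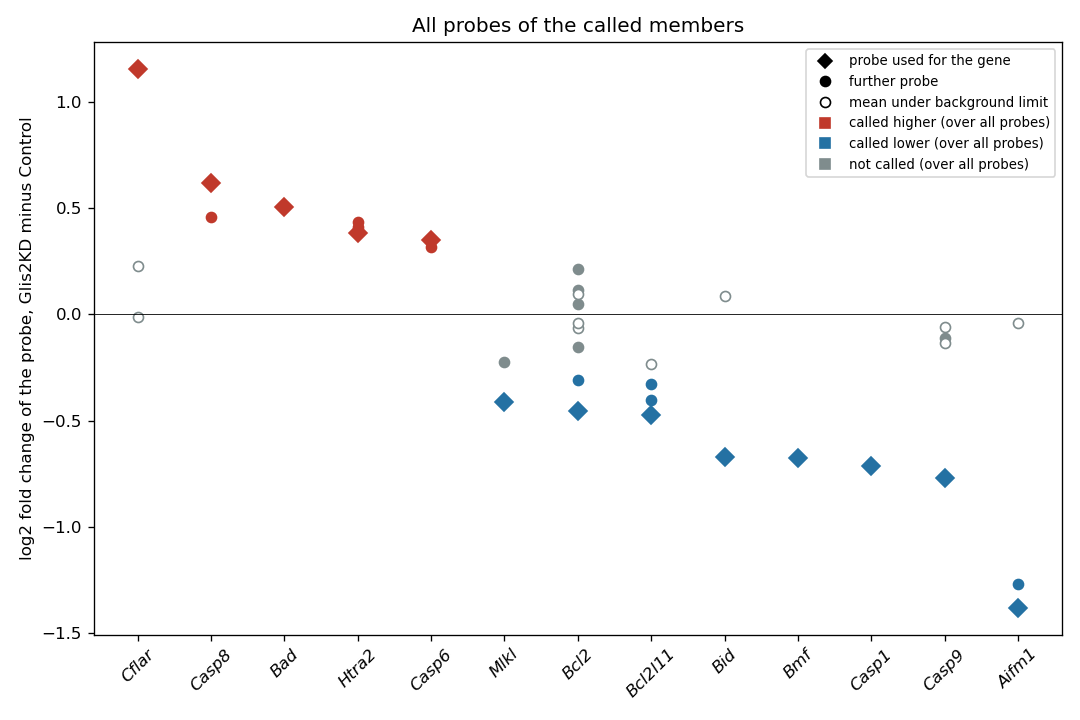
Log2 fold change of every probe of the 13 called genes, Glis2KD minus Control (diamonds, the probe used; circles, further probes; open symbols, mean under the background limit; colour, call over all probes). Further probes above background of Casp8, Htra2, Casp6, Bcl2l11 and Aifm1 lie near the probe used, and those of Bcl2 spread on both sides of 0.

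Several of these genes lie in stretches of chromosome where the called genes mostly ran the same way. For comparison, 11.1% of all genes were called higher and 11.4% lower. Of the genes above background, 21.5% were called higher and 22.2% lower. Cflar and Casp8 are next to each other on chromosome 1 among genes with a probe. Of the 12 genes around the pair, 6 on each side, 4 were called higher and 0 lower, including Ppil3 at 0.63 and Trak2 at 0.45, while Orc2, Fam126b, Ndufb3 and Flacc1, which lie between Ppil3 and Cflar, were not called. The 50 nearest genes above background had a median log2 fold change of 0.19 for Cflar, with 22 called higher and 3 lower. In a fit chosen after seeing the data, each array had the median change of these neighbours on that array taken off, every gene first being centred on its own mean, so that the result lies near, but need not equal, the fold change less that median. Relative to them Cflar then had 0.95, adjusted p = 1.72e-09, and Casp8 0.42, adjusted p = 0.000913, and both were called.

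Aifm1 lies on the X chromosome, where 38 of its 50 nearest genes above background were called lower and 0 higher, with a median of -0.71. Elf4, its nearest neighbour with a probe on one side, had -0.94. On the other side the nearest, Rab33a, was at background, followed by Zfp280c at -0.58 and Slc25a14 at -0.61. Of the 12 genes around Aifm1, 7 were above background, 5 were called lower and 0 higher. Bcorl1 at -0.145 and Rbmx2 at -0.178 were above background and not called. Relative to its neighbours Aifm1 still fell, with -0.67, adjusted p = 4.15e-06. Xiap, on the same chromosome among genes with a median of -0.80, was at background and its own change could not be read. Bad lies on chromosome 19 among genes of which 26 of 50 were called higher and 0 lower, with a median of 0.26, and relative to them it was not called (0.20, adjusted p = 0.0930). The other 9 called genes kept their direction and their call relative to their neighbours. The differences were -0.76 for Casp9, -0.61 for Casp1, -0.59 for Bmf, -0.56 for Bid, -0.35 for Bcl2, -0.34 for Mlkl and -0.31 for Bcl2l11. In the fit that took off the median level of the neighbours in place of their median change, Casp1 (-0.24, adjusted p = 0.0849), Bcl2 (-0.16, adjusted p = 0.270) and Bcl2l11 (-0.18, adjusted p = 0.186) were not called. With the median change taken off, Htra2 had 0.49 and Casp6 0.35. Cycs, on chromosome 6 among genes with a median of -0.069, was called relative to them (0.32, adjusted p = 0.0102).

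Of the 13 called genes, 12 had the sign of their neighbours' median, the exception being Htra2, and among all 4145 called genes above background with a known place 71.0% did. That median was near 0 for Casp9 (-0.029), Mlkl (-0.044) and Casp6 (0.045), and around Casp6 15 neighbours were called lower and 8 higher. Cflar and Casp8 adjoin each other and are not separate cases. Casp1, Casp4 and Casp12 adjoin one another on chromosome 9. Of the 12 genes around them, 5 were called lower and 0 higher, the collagenase Mmp13 at -3.77 among those lower. Of all genes, 11.4% were called lower. The median of the 50 neighbours of Casp1 was -0.114, with 16 called lower and 3 higher. How much of each gene's change belongs to its chromosome region was not tested beyond these values.

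**Figure D4:**
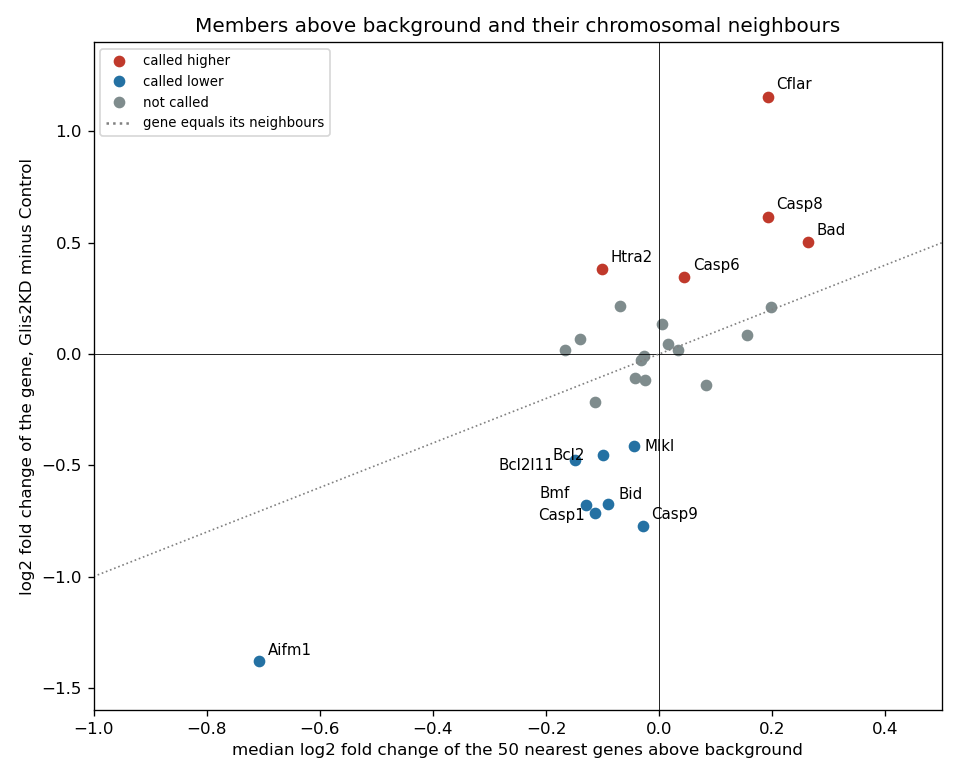
Log2 fold change of each of the 27 apoptosis genes above background (vertical axis) against the median log2 fold change of its 50 nearest genes above background (horizontal axis), with the line of equality dotted. Aifm1 stands apart at the lower left with its neighbours at -0.71, and Cflar lies 0.96 above the median of its neighbours.

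The remaining machinery of these pathways was read from 3 further lists. Beside their counts, 22.5% of all genes were called, and 43.7% of those above background. Of 29 other core apoptosis genes measured, 4 were called higher and 2 lower, and 16 were above background (median log2 fold change 0.019). Apaf1, the scaffold on which Casp9 is activated, rose to 4207, 3716 and 3501 in Glis2KD, against 2370.5, 2388 and 2554 in Control, a log2 fold change of 0.64 where Casp9 fell. Bnip3l, a mitophagy receptor related to BH3-only proteins, had 1793, 2101 and 2468 in Glis2KD and 5017, 5046 and 3327 in Control, a log2 fold change of -1.06. Pdcd4, an inhibitor of translation, had -0.41, and Pidd1, the scaffold that activates Casp2, 0.26, while Pdcd10, a protein of the cerebral cavernous malformation complex, had 0.24. Bcl2l15 was called at 0.25 but had a mean under the background limit.

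Of 23 death receptors, ligands and adaptors, 16 were above background, 3 were called higher and 4 lower, with a median of 0.023. Tnfaip3, the ubiquitin-editing enzyme A20 that restrains signalling from the tumour necrosis factor receptor, had 2175, 2117 and 2248 in Glis2KD and 714, 920.2 and 705 in Control, a log2 fold change of 1.49 (limma's adjusted p = 3.63e-11). The death domain receptor Tnfrsf21 rose with 0.99 and Tnfrsf10b, the mouse receptor for the death ligand Tnfsf10, with 0.63. The receptors for tumour necrosis factor fell, Tnfrsf1b with -0.79 and Tnfrsf1a with -0.26, as did Traf2, the adaptor that brings Birc2 to these receptors, with -0.60. Tnfaip8 was also called lower, at -0.50. Of 16 inflammasome and pyroptosis genes, 3 were above background, 0 were called higher and 2 lower. These were Txnip, a regulator of thioredoxin, at -0.43, and Gsdma, whose Glis2KD arrays were all under the limit and which was at least 1.15-fold lower.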

How the data were processed

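RNA from 3 Glis2KD and 3 Control samples was read on Illumina mouse bead arrays with Cy3 label, per the labels' protocols. The authors deposited 1 linear intensity per probe and array; their software and normalization were not given in the sources used here. By their values, the deposited intensities already shared 1 distribution (log2 medians within 0.00029) with background included. The number of arrays limits the precision. Intensities were floored at 16, which altered 0 values, and taken to log2. In the background-subtracted alternative the same floor was applied after subtraction, where it did alter values. Of 45281 probes, 34885 had 1 gene symbol, 18 several and 10378 none; 34807 matched a RefSeq table of GRCm38.p6, used for names and gene order only.

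Genes were represented by the probe with the highest mean log2 intensity and compared with limma 3.58.1 in R 4.3.3 (lmFit, eBayes), adjusted over 19057 genes; probes were fitted likewise over 34885. The fit was run on simulated data with changes planted in noise drawn independently for each gene. That run did not cover shifts shared by a chromosome region or an infection. Neighbours were the 50 nearest genes above background in gene order. A gene under the limit on all 3 arrays of a group has an at-least fold against the limit. All called members and all called genes of each further list were named. The members, lists and tests were chosen with earlier results of these data known. Same-numbered arrays did not deviate together (r -0.096 to -0.040).

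Alternatives were a replicate block, quantile normalization, background subtraction, normexp (offset 50), only genes above background, eBayes with trend and robust, the mean of all probes, each array's values less its neighbours' median level, and leaving out each array. The same with every gene first centred on its mean over the arrays was chosen after seeing the data.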

Additional observations from a re-analysis of the deposited data

How the results depend on the processing

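For the 13 called genes, 15 alternatives gave 195 results, of which 185 kept the call, 10 lost it and 0 turned sign. The 6 genes Casp8, Casp9, Bid, Bmf, Cflar and Aifm1 kept it throughout. The 5 higher and 8 lower members became 3 and 7 with background subtracted, where 13.8% of all genes were called. With the replicate block they were 5 and 8, and the block changed no call of a member; the numbers are shared only as labels. Leaving out 1 array gave 4 to 6 higher and 8 lower members. Less the median level of the 50 neighbours on each array, they became 9 and 6, with 39.1% of all genes called. There Casp1, Bcl2, Bcl2l11 and Bad lost their calls, and Casp4 at 0.49, Casp12 at 0.43, Bik at -0.33, Xiap at 0.87, Birc3 at 0.57 and Bok at 0.33 gained one, the first 4 with a change of sign. That median is taken over genes of unequal brightness, so it can move otherwise than their median fold change. With every gene centred first, which was chosen after seeing the data, the members were 6 and 8 and 28.8% of all genes were called. Of the called genes only Bad then lost its call, and Cycs and Xiap gained one, Xiap at 0.75 because its reading stayed at background while its neighbours fell by 0.80 (median). Birc2 was called with the mean of all probes, at -0.21; the cause was not tested. Glis2 was called in all 13 alternatives run for it, from -1.27 to -0.45. Signal over background limits Casp4, Casp12, Bik, Hrk, Birc3, Xiap and Dffb, for which no change could be read.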
